A study of Bos taurus with 6 samples.

Results

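Chosen genes of the bovine histocompatibility region on chromosome 23 gave 11 of the 14274 circular RNAs (circRNAs) read in subcutaneous fat of Qinchuan cattle. CircRNAs are closed RNAs made by back-splicing and are counted by the reads that cross the junction. Other genes of the region gave further circles, some of which are described below. The 11 are every circRNA annotated to JSP.1, BOLA, BOLA-DMA, BOLA-DQA1, TAP2 or the unnamed gene ENSBTAG00000010166. Of these circles, 6 came from TAP2, 2 from the pair JSP.1 and BOLA, and 1 each from BOLA-DMA, BOLA-DQA1 and ENSBTAG00000010166. On the chromosome, the circles of TAP2 and BOLA-DMA lie from 7080502 to 7231143. Those of the other hosts lie from 25407843 to 28505438, so the members are not at a single site. The study compared 3 libraries of calves, 6 months old, with 3 libraries of adults, 24 months old, to find circRNAs that differ between these developmental stages. Both groups were subcutaneous fat of this breed from a slaughterhouse, snap-frozen and depleted of ribosomal RNA, and the labels name no treatment, sex or genotype. The labels do not say that each library is a separate animal, so spreads and tests measure the variation between these samples.

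The hosts were chosen by the junction reads of their circles in the adult against calf contrast and by the authors' annotation of them. In the authors' deposited table of antigen processing and presentation, 5 of the 58 input genes belonged to this term, and all 5 are hosts here (corrected p = 0.0271). The authors' deposited tables of differing circles list 81 circRNAs, 0.567% of all, and hold 5 of the 11, of which 4 are lower in adults (0.336% of all circRNAs are listed so) and 1 is higher (0.231%). The age difference of these circles is therefore a description. Where the fit over all circRNAs or gene sets put them past its threshold, that is given as a count, and it is not independent evidence of a difference.

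Histocompatibility molecules carry peptides to the cell surface, where T cells inspect them. Class I molecules, made of a heavy chain and beta-2-microglobulin, show peptides from the cytosol on nearly all nucleated cells, and the transporter formed by TAP1 and TAP2 moves those peptides into the endoplasmic reticulum. Class II molecules, made of an alpha and a beta chain such as the DQ chains, show peptides taken up from outside and are made mainly by professional antigen-presenting cells, and the DM molecule exchanges the peptides they hold. Fat contains macrophages and other immune cells beside adipocytes. In bulk tissue, fewer cells of a type and less RNA per cell cannot be told apart. The class I heavy chain and DQ genes have close copies in the region, so a read given to any of them may come from another. Whether the same holds for reads of TAP2, BOLA-DMA or the unnamed gene was not tested.

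The libraries held 35616 to 47298 junction reads. The 11 circles had 1619 junction reads, 0.681% of all, from 183 in adult 3 to 336 in calf 1. Levels are given as junction reads and as CPM, junction reads scaled to a library total of 1000000. Their summed level (mean ± SD, n = 3 for each age, as for all levels here) was 8341 ± 726 CPM in calves against 5484 ± 1246 CPM in adults, and the lowest calf library, at 7581 CPM, lay above the highest adult library, at 6905 CPM. A library with 0 reads could still hold up to 3 counts, or 63.4 to 84.2 CPM. The smallest nonzero count in the deposited reads was 2, so whether a 0 also stands for a single read is not known. Fold bounds below divide the mean of the age that was read by the mean floor of the other age. They leave out the spread between libraries. Reads of circles of the listed adipocyte markers numbered 99 to 143 in calves and 117 to 123 in adults, from 5 of 8 genes. These sums join genes that differed in direction. PPARG had 51, 48 and 75 reads in calves and 27, 38 and 18 in adults. CD36 had 43, 50 and 56 in calves and 90, 76 and 105 in adults. ADIPOQ, PLIN1 and LIPE had 16, 18 and 2 reads in all. Reads of circles of skeletal muscle markers stood apart in adult 2, with 670, the other libraries having up to 3. The members with reads in adult 2 had them in adult 1 as well, other than novel_circ_0007171. In the reverse case, novel_circ_0007172 had 56 reads in adult 1, 36 in adult 3 and 0 in adult 2. The part of muscle in the levels of the members was not tested.

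The ages differed in opposite directions within the group: circles of the class I pair, of BOLA-DQA1 and of ENSBTAG00000010166 were read in calves only, that of BOLA-DMA was lower in adults, and 1 TAP2 circle was read in adults only. Enough reads for the edgeR fit were present for 8 of the 11, and of those 4 passed its adjusted threshold of 0.05, 3 lower and 1 higher in adults. Over all 663 tested circRNAs 19.0% passed, 10.4% lower and 8.6% higher. Groups did not overlap for 4 of these 8, against 39.4% of tested circles. Because the age contrast chose these hosts, nothing is read from these counts. The median log2 change (adult minus calf) of the 8 was 0.19, and that of all 663 was 0.00.

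**Figure D1:**
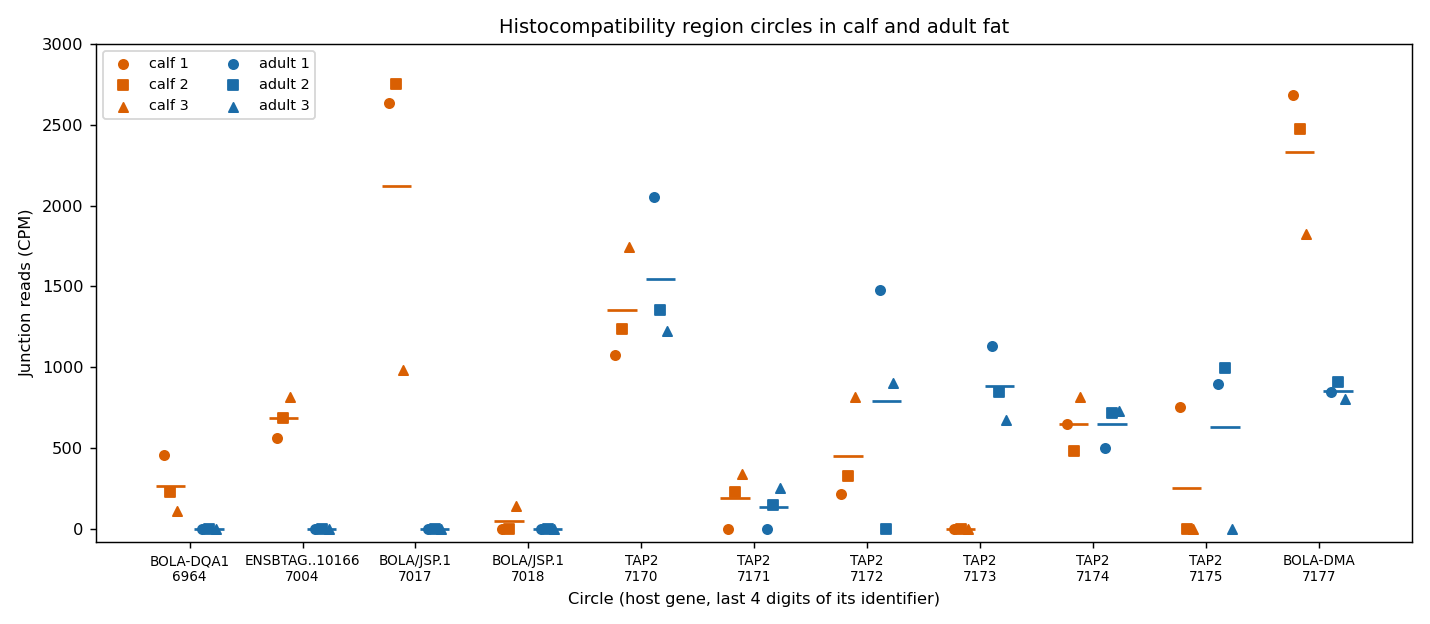
Junction reads in CPM (y axis) of each of the 11 circles (x axis) in the 3 calf libraries (orange) and the 3 adult libraries (blue), with symbols for library number and lines for group means. BOLA-DQA1, ENSBTAG00000010166 and both class I circles lie at 0 in all adults, and TAP2 novel_circ_0007173 lies at 0 in all calves.

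Class I heavy chains gave the circle with the highest fold bound between the ages among the 11. The circle novel_circ_0007017 runs over JSP.1 and BOLA, a pair of neighbouring class I heavy chain genes (chromosome 23, 28426264 to 28503747, minus strand). Calves 1 to 3 gave 98, 109 and 35 reads of it, and adults 1 to 3 gave 0, 0 and 0. Calves 1 and 2 stood close together, calf 3 had the fewest reads, and the groups did not overlap. The calf mean of 2123 ± 989.7 CPM was at least 29.3-fold the adult level, set against a floor of 3 counts per library. The second circle of this pair, novel_circ_0007018 (28472724 to 28505438), had 5 reads in calf 3 and 0 in the other 5 libraries. It lay too near the floor for a fold.

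The non-junction reads of a circle are listed by the authors only for libraries that held the circle, so they do not give the level of the host in the others. For novel_circ_0007017 they numbered 657, 689 and 279 in calves 1 to 3, low in calf 3 as the junction reads were. Per 100 non-junction reads the circle had 14.9, 15.8 and 12.5 junction reads, so this ratio varied less among calves than the reads themselves.

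Beta-2-microglobulin, the partner chain of every class I heavy chain, offers a comparison that did not choose the members. Its gene B2M, outside the region, gave 1 circle (novel_circ_0000042) with 65, 68 and 43 reads in calves and 55, 73 and 39 in adults. The groups overlapped, with levels of 1557 ± 303 CPM at the calf age and 1323 ± 304 CPM at the adult age. The edgeR fit gave a log2 change of -0.16 ± 0.28 (SE), which missed the threshold (adjusted p = 0.733). The difference between the B2M circle and the class I circles was not tested.

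Next in this role group are the circles of BOLA-NC, a name used for nonclassical class I genes, which lie below the pair on the chromosome and were added after their values were seen. In the RefSeq table this name is a synonym of more than 1 gene, so which gene gave them is uncertain. None of the 4 circles under this name was read in more than 2 libraries. The circle novel_circ_0007013 had 41 and 35 reads in adults 1 and 2 and 0 elsewhere, while novel_circ_0007015 had 19 and 29 and novel_circ_0007016 had 18 and 27 in calves 1 and 2 and 0 elsewhere. Class I circles were thus present at both ages, in different libraries and with different ends. The start of the JSP.1 and BOLA circle novel_circ_0007017 lies 117 bases above the end of novel_circ_0007013 and 218 bases below the end of novel_circ_0007015, so the lower side of 1 circle and the upper sides of the other two fall within a short stretch.

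**Figure D2:**
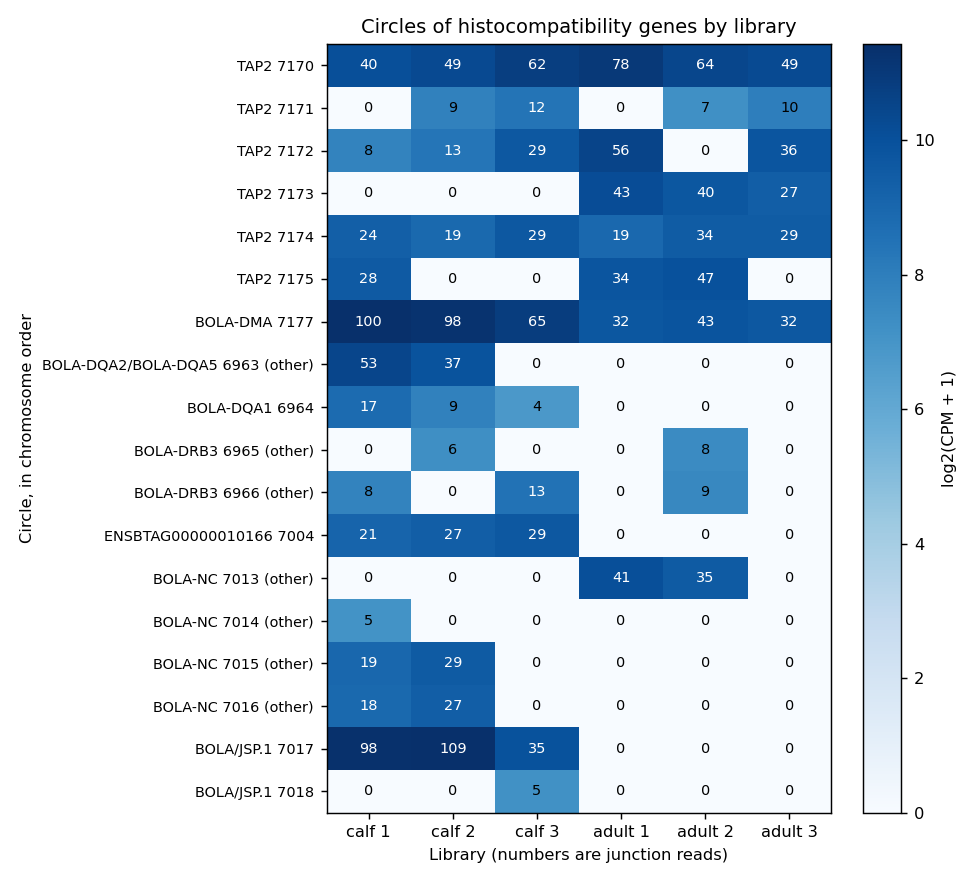
Circles of histocompatibility genes (rows, in chromosome order) in the 6 libraries (columns), with junction reads printed in each cell and log2(CPM + 1) as the shade; rows marked other are not members. Labels end in the last 4 digits of the identifier: BOLA-NC novel_circ_0007013 has reads in adults 1 and 2 alone, and novel_circ_0007015 and novel_circ_0007016 in calves 1 and 2 alone.

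TAP2, which codes for a subunit of the peptide transporter, was the leading host, with 895 reads or 55.3% of those of the 11 circles. Its 6 circles together gave calves 1 to 3 a sum of 100, 90 and 132 reads, against 230, 192 and 151 for adults 1 to 3. All adults lay above all calves in CPM, although calf 3, at 3706 CPM, was close to adult 3, at 3778 CPM. The mean was 2889 ± 737 CPM for calves against 4633 ± 1245 CPM for adults, a log2 change of 0.74 ± 0.27 (SE) in the fit on reads summed per annotated gene set. The sum did not pass there, while the other 3 tested host sets, of JSP.1 and BOLA, BOLA-DMA and ENSBTAG00000010166, passed as lower in adults. These sums hold the reads that chose the hosts, so nothing is read from which of them passed. Of all 735 gene sets 13.2% passed, 7.07% lower and 6.12% higher. The TAP2 sum narrowly crossed the threshold without calf 3 (log2 change 0.95, edgeR adjusted p = 0.0499) or without adult 3 (0.90, edgeR adjusted p = 0.0469). Without calf 1, calf 2, adult 1 or adult 2 it did not (edgeR adjusted p from 0.133 to 0.320). It crossed in none of the other alternatives described below.

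A single TAP2 circle, novel_circ_0007173 (7084254 to 7106503, minus strand), was read in adults only. Adults 1 to 3 gave 43, 40 and 27 reads and each calf gave 0. Its adult mean of 885 ± 231 CPM was at least 11.03-fold the calf level. In adults it held 19.1 ± 1.52% of the TAP2 junction reads, a share that varied little. Without it, the other 5 circles summed to 3748 ± 1023 CPM in adults against the same 2889 ± 737 CPM in calves, and the groups overlapped.

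A pair of TAP2 circles was read in every library, with overlapping ages. The most abundant, novel_circ_0007170 (7080502 to 7103148), had 40, 49 and 62 reads in calves and 78, 64 and 49 in adults. Its log2 change was 0.28 ± 0.29 (SE), and it held 47.1 ± 7.22% of TAP2 reads in calves and 33.2 ± 0.737% in adults. The other, novel_circ_0007174 (7084706 to 7107157), had 24, 19 and 29 reads in calves and 19, 34 and 29 in adults. At 646 ± 167 and 648 ± 128 CPM its group means almost coincided.

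The remaining TAP2 circles were read in some libraries of both ages and not in others. The circle novel_circ_0007175 (7086708 to 7108993) gave 28 reads in calf 1, 34 in adult 1 and 47 in adult 2. Libraries that held it included both ages, and the other 3 had 0. The circle novel_circ_0007172 (7083606 to 7105859) had 8, 13 and 29 reads in calves and 56, 0 and 36 in adults. Adult 2 thus lacked a circle that adult 1 held at 1476 CPM. The circle novel_circ_0007171 (7083032 to 7103778) had 0, 9 and 12 reads in calves and 0, 7 and 10 in adults, absent from library 1 of both ages.

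Such steps between libraries were described for the whole group. All 8 tested members had at least 25 reads in 1 library, and 5 of them had 0 in another. Among all tested circRNAs with at least 25 reads in 1 library, 9.25% had 0 in another. The 5 include 3 that were at 0 throughout 1 age, as were 2.41% of tested circles. That property was among those that chose the hosts, so nothing is read from either count. The rest of the 5, novel_circ_0007172 and novel_circ_0007175, are both circles of TAP2.

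**Figure D3:**
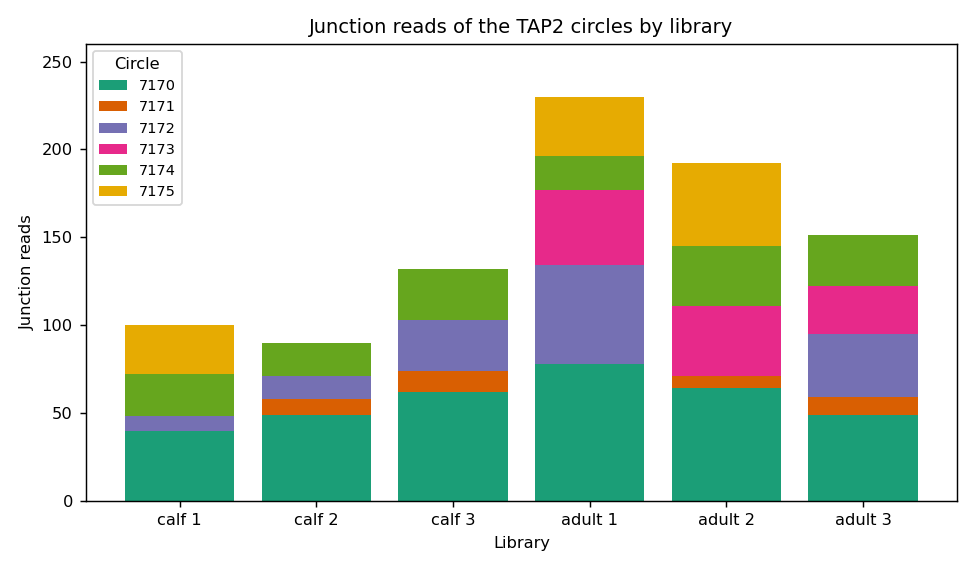
Junction reads (y axis, from 0) of the 6 TAP2 circles stacked for each library (x axis), with colours for circles named by the last 4 digits of their identifiers. Totals run from 90 in calf 2 to 230 in adult 1, and novel_circ_0007173 appears in the 3 adult bars alone.

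Non-junction reads of TAP2 lay close together for its circles within a library, with the widest range in adult 1, from 505 to 598. The files do not define how these reads were counted. Over the circles read, the median was 534, 457.5 and 534.5 for calves 1, 2 and 3, and 508, 707 and 655 for the adults in the same order. Calf 1 and calf 3 lay above adult 1 and below adults 2 and 3, so these counts overlapped between the groups. They are not scaled for library depth, so the level of the host was not compared between the ages. Per 100 non-junction reads, novel_circ_0007173 had 8.46, 5.66 and 4.10 junction reads in adults 1 to 3. The circle novel_circ_0007174, read in every library, had 3.75 to 5.45 over all 6 libraries. Over 1833 circRNAs with at least 20 junction reads, the median of this ratio was 5.77.

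The TAP2 circles also shared a layout that the choice of hosts did not use. Each ended at a listed exon or intron boundary where a TAP2 exon begins on the minus strand, and each at a different exon. All 6 starts lay inside the intron that the file numbers 1 (7080173 to 7102615), at no listed exon boundary. Their spans were alike, from 20746 to 22646 bases with a median of 22269, so that starts and ends shifted along the gene together.

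Distances from the starts to the listed exons repeated, a pattern noticed after the positions were seen. The start of novel_circ_0007171 lay 22698 bases below the lower side of the exon between the introns numbered 5 and 6. That of novel_circ_0007172 lay 22699 bases below the exon numbered 6, and that of novel_circ_0007173 lay 22697 bases below the exon numbered 5. Each of these 3 circles ended at the exon that follows the matched one along the strand. A total of 54 distances, between the 6 starts and the 9 listed lower sides, was computed, and this spacing was the one shared by the most circles within 2 bases. What lies in the intron at these positions is not given in the files.

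**Figure D4:**
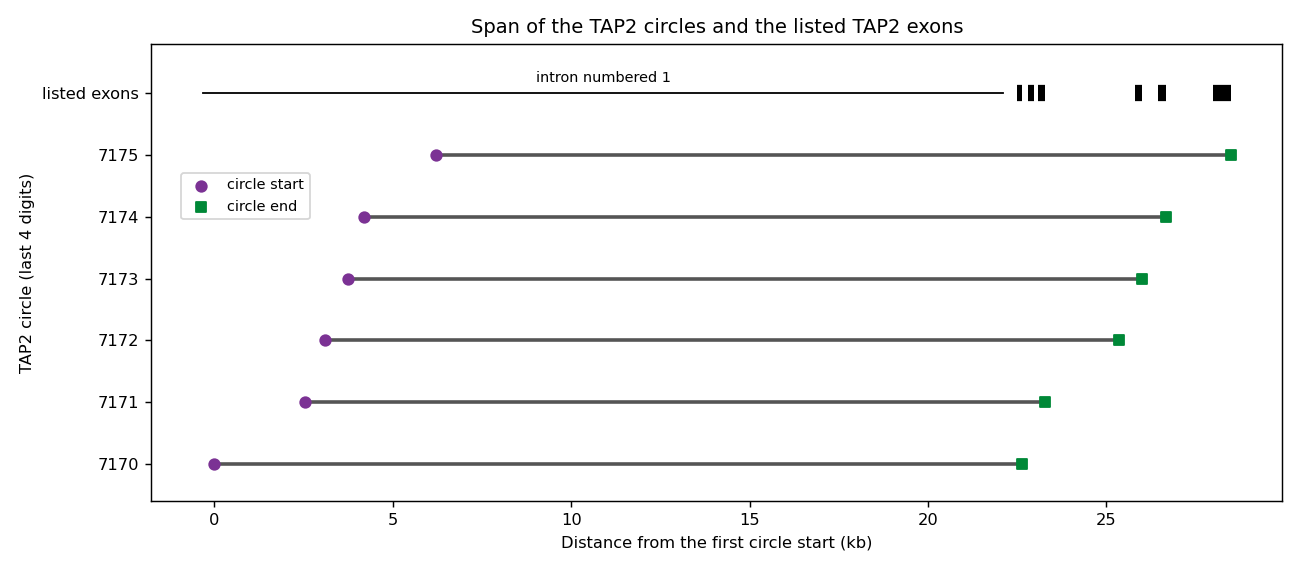
Spans of the 6 TAP2 circles (rows, last 4 digits of the identifier) as distance in kb from the first circle start (x axis), with starts as purple dots, ends as green squares, and the listed exons and the intron numbered 1 in the top row. All starts lie in the intron and the ends step through the exons, with spans of 20746 to 22646 bases; the exon at the end of novel_circ_0007172 is listed only through its introns and is not drawn.

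Among class II genes, BOLA-DMA, which codes for the alpha chain of the peptide-exchanging DM molecule, was lower in adults. Its circle novel_circ_0007177 (7204354 to 7231143, plus strand) was the most abundant single circle of the group, with 370 reads. Calves 1 to 3 gave 100, 98 and 65 reads, and adults 1 to 3 gave 32, 43 and 32. Every calf lay above every adult, and the adults were close together. The level was 2329 ± 449 CPM for calves against 851 ± 54.7 CPM for adults, a log2 change of -1.37 ± 0.26 (SE).

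BOLA-DMA stood apart from the other members in its non-junction reads. Without scaling for library depth, they numbered 102, 61 and 35 in calves and 12, 23 and 17 in adults. These counts were lower in every adult than in any calf. The circle therefore had 98.0, 161 and 186 junction reads per 100 non-junction reads in calves and 267, 187 and 188 in adults. The median over libraries was 186, against an upper quartile of 17.6 over all circRNAs with at least 20 junction reads. Junction reads exceeded non-junction reads in 5 of 6 libraries, which no other member showed in any library.

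**Figure D5:**
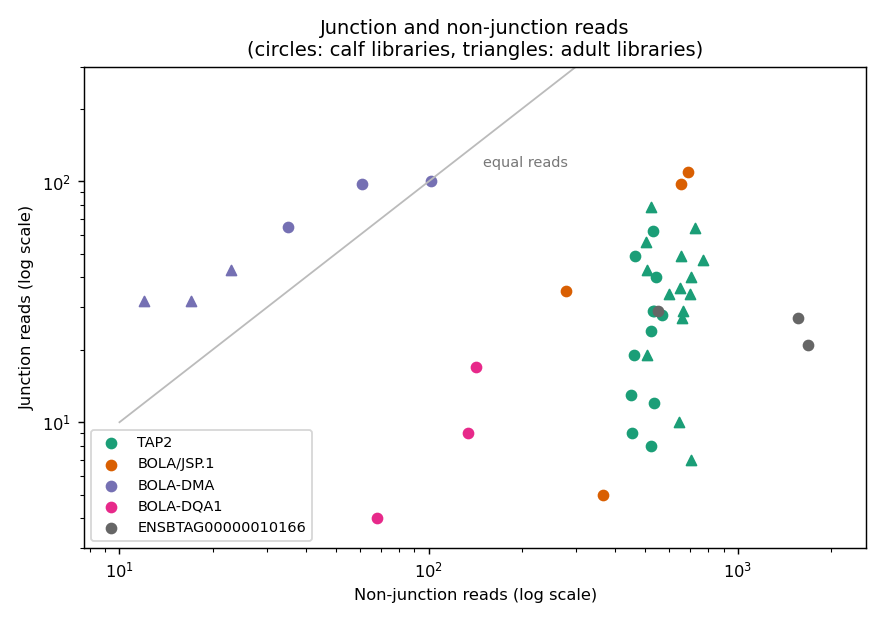
Junction reads (y axis, log scale) against non-junction reads (x axis, log scale) for each member circle in each library that held it, with colours for hosts, dots for calves, triangles for adults and a grey line of equal reads. BOLA-DMA points lie on or above the line except calf 1 (100 against 102), and all other points lie below it.

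BOLA-DQA1, which codes for a class II DQ alpha chain, gave a small circle count in calves only. The circle novel_circ_0006964 (25407843 to 25427250, minus strand) gave 17, 9 and 4 reads in calves 1, 2 and 3, with 0 for each adult. The calf mean of 266 ± 175 CPM was at least 3.66-fold the adult level, and calf 3 stood nearest the floor, with 112 CPM. It had too few reads for the fit. In the authors' deposited table it is listed with a log2 fold change of -5.80.

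Other class II alpha and beta chains gave circles in some libraries only. A circle across BOLA-DQA5 and BOLA-DQA2 (novel_circ_0006963) had 53 and 37 reads in calves 1 and 2 and 0 in calf 3 and in all adults. It ends 2057 bases before the BOLA-DQA1 circle starts. The beta chain gene BOLA-DRB3 gave a pair of circles with 1 start, 25475626, and different ends. The longer, novel_circ_0006966, had 8 and 13 reads in calves 1 and 3 and 9 in adult 2, and the shorter, novel_circ_0006965, had 6 in calf 2 and 8 in adult 2. Counting BOLA-NC, each of these 7 further circles was read in at most 3 libraries, and none had enough reads in enough libraries to be tested.

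The unnamed gene ENSBTAG00000010166, which the authors' deposited table places under antigen processing and presentation, gave novel_circ_0007004 (27666140 to 27727008, minus strand). Calves 1 to 3 gave 21, 27 and 29 reads, and each adult gave 0. Calves lay close together, at 687 ± 125 CPM, at least 9.47-fold the adult level. Unlike novel_circ_0007017, it was not lowest in calf 3. Its non-junction reads numbered 1691, 1561 and 552, so that the circle had 1.24, 1.73 and 5.25 junction reads per 100 of them.

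In structure the 11 circles were long. They spanned 19407 to 77483 bases with a median of 22451, and the median of the 12292 circRNAs with an annotated gene was 6178. All 11 spanned over 15000 bases, as did 20.5% of those 12292, a limit set after the values were seen. Among the 622 tested circRNAs with a gene, 33.6% did. The 6 TAP2 circles overlap one another and have similar spans, so the 11 are not separate cases. The 7 further BOLA circles spanned 20901 to 94372 bases, so this length was not particular to the 11. Exons together with introns were listed for 10 of 11, against 63.0% of the 12292 and 69.5% of the 622. The BOLA-DQA1 circle listed exons only, for a spliced length of 456 bases. Both ends met a listed exon or intron boundary in 1 of 11, novel_circ_0007018, against 28.8% of the 12292 and 37.1% of the 622. The end alone met one in 8 others.

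Most other genes of antigen presentation gave few circles. Of 65 symbols on the list for this pathway, 27 had reads, of which 22 were not members. After B2M, the non-members with most reads were BOLA-DQA5 and BOLA-DQA2 with their shared circle, ERAP1, a peptide-trimming enzyme of the endoplasmic reticulum, with 48 reads, and BOLA-DRB3 with 44. The ERAP1 circles had 9, 10 and 4 reads in calves and 10, 6 and 9 in adults, with no split by age. B2M alone of the 22 had enough reads to be tested. In the files used here 0 circles were annotated to TAP1, TAPBP, PSMB8, PSMB9 or CD74.

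Circles of immune cell markers had few reads, other than those of the macrophage marker ADGRE1. Those of 3 of 8 macrophage markers had 2 to 18 reads in calves and 57 to 460 in adults, most of them from ADGRE1. Its circles had 2, 9 and 16 reads in calves and 44, 72 and 457 in adults. Its gene set passed as higher in adults, as did 6.12% of all sets. CD163 and ITGAM had 7 and 27 reads in all. CD68, MRC1, CSF1R, CD14 and LYZ were at 0. All 20 markers of T cells, B cells and dendritic cells were at 0 in every library, and 2 of 4 pan-leukocyte markers had 2 to 7 reads in calves and 0 to 5 in adults. Endothelial markers, 5 of 6 read, had 34 to 38 reads in calves and 42 to 52 in adults, with genes in both directions. VWF had 0 in each calf and 10, 18 and 2 in adults, and PECAM1 had 0, 5 and 7 against 8, 8 and 14. FLT1 had 21, 23 and 17 in calves and 14, 16 and 17 in adults, and reads of TEK and KDR overlapped between the ages. The part of cell composition in the age differences was not tested.

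Of 35 further circles starting within 500000 bases of a member start, 29 had under 20 reads. HSPA1A, a heat-shock protein gene, gave the tested one (log2 change -1.54 ± 0.84 SE, edgeR adjusted p = 0.234). The pattern of the most abundant circles over the 6 libraries was compared with that of every other tested circRNA, as a description on log2 CPM. Nearest to novel_circ_0007177 of BOLA-DMA were circles of GSTM2, a glutathione transferase gene (Pearson r = 0.99), and EEPD1 (r = 0.99), then novel_circ_0010232 across ENSBTAG00000000229 and ENSBTAG00000037890 (r = 0.98). Nearest to novel_circ_0007017 of JSP.1 and BOLA were 3 circles of this last pair (r from 0.995 to 0.999), which share its 0 in all adults. Their largest, novel_circ_0010234, had 251, 281 and 141 reads in calves. Nearest to novel_circ_0007170 of TAP2 were novel_circ_0000440, with no annotated gene (r = 0.97), and circles of PAFAH1B1 (r = 0.91) and MGA (r = 0.88).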

How the data were processed

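CircRNAs were measured in 6 libraries of subcutaneous fat, 3 per age. Per the submitters' processing notes, Trim Galore, TopHat2 2.0.14, TopHat and Cufflinks were used. For the circRNA caller and the build, the record reads: not given in the sources used here. RNase R is described per the labels' protocols, but whether these libraries received it is not certain. The authors deposited junction read counts for 14274 circRNAs, with a smallest nonzero count of 2. They also deposited columns headed TPM, which equal CPM of junction reads without a length term to a share of 4.8e-15. The authors deposited a comparison with group means of scaled reads (a normalised signal), log2 fold changes and p-values. Coordinates are printed as the deposited annotation gives them, and sequences are not used here.

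Adult and calf counts were compared in R 4.3.3 with edgeR 4.0.16 (quasi-likelihood) after filterByExpr (663 circRNAs, 57.9% of reads) and TMM scaling (0.9641 to 1.031). Benjamini-Hochberg adjustment ran over all tested circRNAs, and 0.05 was the threshold. Reads were also summed over circles with the same annotated gene set, which left 735 sets. The fits were tested on simulated counts with the same variability setting for every feature. That setting did not model circles confined to either age, so it does not cover those members. SE comes from the F statistic. Floors of 3 counts cover counting error only, because PCR copies and separate molecules are not distinguished. By rule the text names members with at least 20 reads, called genes and the 5 with most reads on the antigen presentation list, called neighbours, and the 3 circRNAs most alike to each of 3 members (log2 CPM with prior count 2). Other names (novel_circ_0007018, BOLA-NC, further genes of the list, single cell type markers and HSPA1A) were added after their values were seen. Older symbols were matched to a RefSeq gene table of ARS-UCD2.0. Alternatives were DESeq2 1.42.0, limma-voom (limma 3.58.1), other scalings and filters, a replicate block and leaving out each library. Members and lists were chosen with earlier results of these data known.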

Additional observations from a re-analysis of the deposited data

How the results depend on the processing

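The alternatives refit the reads that chose the hosts, so they show the effect of the processing and give no further support for the age differences. The 4 members that passed (novel_circ_0007017, novel_circ_0007004, novel_circ_0007173 and novel_circ_0007177) kept direction and call in all 13 alternatives, and the other 4 tested members passed in none. Of those, novel_circ_0007172 turned to a log2 change of -1.39 with limma-voom and novel_circ_0007174 to -0.10 without calf 2, in a range of -0.10 to 0.27 without 1 library. The log2 change of novel_circ_0007175 ranged from 0.79 to 7.72. Over all circRNAs the count that passed was 126, and 202 without a filter. It was 71 to 138 without 1 library, lowest without calf 1 (71), calf 2 (74), adult 2 (81) and adult 1 (82). For gene sets it was 97, with 146 without a filter and 58 to 134 without 1 library, the 58 without calf 2. With the replicate number as a block, 56 circRNAs passed. Same-numbered libraries had deviations correlated at -0.05, 0.08 and 0.02 over tested circRNAs, so the numbers were not taken to pair the samples. The causes of these changes were not tested. A floor of 1 count in place of 3 raises the fold bounds to 87.8 for novel_circ_0007017, 33.1 for novel_circ_0007173, 28.4 for novel_circ_0007004 and 10.98 for novel_circ_0006964. Circles under about 20 reads could not be compared at this depth.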

Other observations

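Beside the genes described above, the antigen presentation list held hosts with scattered reads. HSPA4, a chaperone gene, gave calves 1 to 3 10, 12 and 8 reads and adults 1 to 3 0, 2 and 9, so that adult 3 lay within the calf range. CD1D, which codes for a molecule that shows lipids to T cells, had 8, 0 and 0 reads in calves and 9, 21 and 0 in adults. Its reads came from calf 1, adult 1 and adult 2, the libraries that also held the TAP2 circle novel_circ_0007175. This coincidence was seen in the values and was not tested.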
